A study of Mus musculus with 15 samples.

Results

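The hearts of mice that lack renalase and of wild-type mice were compared in chronic kidney disease (CKD) without any renalase treatment. The comparison held the 3 libraries labelled KOCKD and the 3 labelled WTCKD, that is 6 of the 15 heart libraries of the series, chosen by genotype and treatment alone. It took in every gene with 10 or more counts in at least 3 of these 6 libraries, which were 12618 of the 17447 genes in the count table. KOCKD mice carried the rnls-/- genotype, made with TALEN nucleases aimed at exon 4 on the C57BL/6J strain. WTCKD mice were C57BL/6J wild types from another supplier, and no source used here calls them littermates. All were males of 6 to 8 weeks at the start, both groups had a 5/6 nephrectomy in 2 operations, and both received vector, the control of the renalase treatment, by tail vein 2 weeks after the second operation. Hearts were taken 18 weeks after surgery. The other 9 libraries, used here for the shared spread and as values beside the results, were 3 of sham-operated wild types (WTSHAM), and 3 of each genotype with CKD and AAV9-cTnT-Rnls, a virus that carries renalase behind the cardiomyocyte troponin T promoter (WTCKD + RNLS and KOCKD + RNLS). No knockout sham library was analysed here, so what the genotype does in CKD hearts and what it does in any heart cannot be told apart.

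Renalase is a flavoprotein made mainly by the kidney and released into the blood. It was first described as an enzyme that breaks down catecholamines, later work gave it an oxidase activity on isomers of NADH and NADPH, and the secreted protein also signals through a plasma membrane calcium pump. In CKD the heart enlarges, its interstitium fills with collagen, and its muscle switches on fetal genes and natriuretic peptides. The question was which cardiac transcripts differed with the genotype once both groups had CKD.

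The 6 libraries held 10480788 to 12205537 counted reads, and Myh6, the adult myosin heavy chain, took the largest share of each of the 15 libraries. Rnls itself was not analysed here, so the genotype rests on the labels. The labels number the samples of a group without naming animals, and the p-values measure the spread between these samples. Atrial tissue differed between libraries within both groups. Myl7, the atrial myosin light chain, stood at 53, 4.84 and 805 CPM (read counts scaled to the size of each library with edgeR's TMM factors) in KOCKD replicates 1 to 3 and at 419.7, 479 and 1.27 CPM in WTCKD replicates 1 to 3, so that KOCKD 3, WTCKD 1 and WTCKD 2 held far more atrial RNA than KOCKD 2 and WTCKD 3. Endothelial, smooth muscle and sarcomere genes were expressed in all 6 libraries, as a heart would show, with Pecam1 at 237, 267 and 214 against 256, 251 and 260.5 CPM.

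No gene passed the test across all genes. With edgeR's quasi-likelihood test and Benjamini-Hochberg adjustment, 0 of 12618 genes (0.0%) had an adjusted p under 0.05, and 1303 (10.3%) had an unadjusted p under 0.05. DESeq2 gave 8 genes at the adjusted threshold with all 15 libraries and 44 with the 6 alone. The threshold of the study, a log2 fold change beyond 0.32 either way with an unadjusted p under 0.05, was met by 716 genes (5.67%), and a gene past it is called higher or lower below. Of these, 248 (1.97%) were higher and 468 (3.71%) were lower in KOCKD. Lower genes were thus 65.4% of those called. The differences were small: the median fold was 1.35 for genes called higher and 1.41 for genes called lower, and 87 of the 716 differed by over 2-fold (22 higher, 65 lower). The precision was fair for most genes, since the 95% interval of 11017 genes (87.3%) lay within a 2-fold change either way. The 3 KOCKD values lay wholly to 1 side of the 3 WTCKD values for 2478 genes (19.6%), above for 1262 and below for 1216, and they lay apart from all other 12 libraries for 419 (3.32%). Without WTCKD replicate 2 the genes called lower were 309. Log2 fold changes below are KOCKD minus WTCKD, with the standard error (SE) of the fit.

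The 4 genes with the smallest adjusted p (0.0512 each, edgeR) were Gm2423, Fggy, Nedd9 and Efemp1. Gm2423, a predicted gene without a known role, stood at 4.72, 12.1 and 11.5 CPM in KOCKD replicates 1 to 3 and at 0.338, 1.29 and 0.765 CPM in WTCKD, or 54, 130 and 143 reads against 4, 14 and 9. The groups did not overlap, and KOCKD 1 was the lowest of its group. The log2 fold change was 3.57 (SE 0.53, unadjusted p = 4.80e-06, edgeR). In WTSHAM, WTCKD + RNLS and KOCKD + RNLS the gene was at most 0.910 CPM, so its high level was seen in KOCKD alone among the 5 groups, KOCKD + RNLS included. Reads of a predicted gene may be shared with a similar copy elsewhere.

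Fggy, which encodes a carbohydrate kinase, showed the opposite pattern. KOCKD replicates 1 to 3 held 1.66, 0.0931 and 0.161 CPM (19, 1 and 2 reads) and WTCKD 5.58, 4.60 and 6.03 CPM (66, 50 and 71 reads). The groups did not overlap, and KOCKD 1 again lay nearest to the wild type. The log2 fold change was -3.07 (SE 0.50, unadjusted p = 1.62e-05, edgeR), and -5.28 without KOCKD 1. KOCKD + RNLS held 6.42, 6.12 and 7.40 CPM, at or above the wild-type groups, and the genotype contrast with RNLS was 0.44. The test of whether the genotype contrast differed between vector and RNLS gave an unadjusted p of 5.08e-05 and an adjusted p of 0.10 (edgeR), the smallest value in that test, which it shares with other genes.

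Nedd9, a scaffold protein of focal adhesions, was lower at 35.4, 40.7 and 32.7 CPM in KOCKD against 57, 61.1 and 50.8 CPM in WTCKD (log2 fold change -0.64 (SE 0.10, unadjusted p = 1.12e-05, edgeR)). WTSHAM hearts stood between them at 46.5, 44 and 47.9 CPM. Efemp1, the extracellular matrix glycoprotein fibulin-3, was at 13.5, 10.5 and 14.4 CPM in KOCKD and 23.3, 29.96 and 21.3 CPM in WTCKD (log2 fold change -0.95 (SE 0.16, unadjusted p = 1.54e-05, edgeR)). KOCKD was close to WTSHAM (13.6, 12.4 and 16.2 CPM) here, while WTCKD lay above all other groups. Both genes were also lower in KOCKD + RNLS than in WTCKD + RNLS, by less (log2 fold change -0.25 for Nedd9 and -0.35 for Efemp1, unadjusted p = 0.0258 and 0.0406, edgeR).

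**Figure D1:**
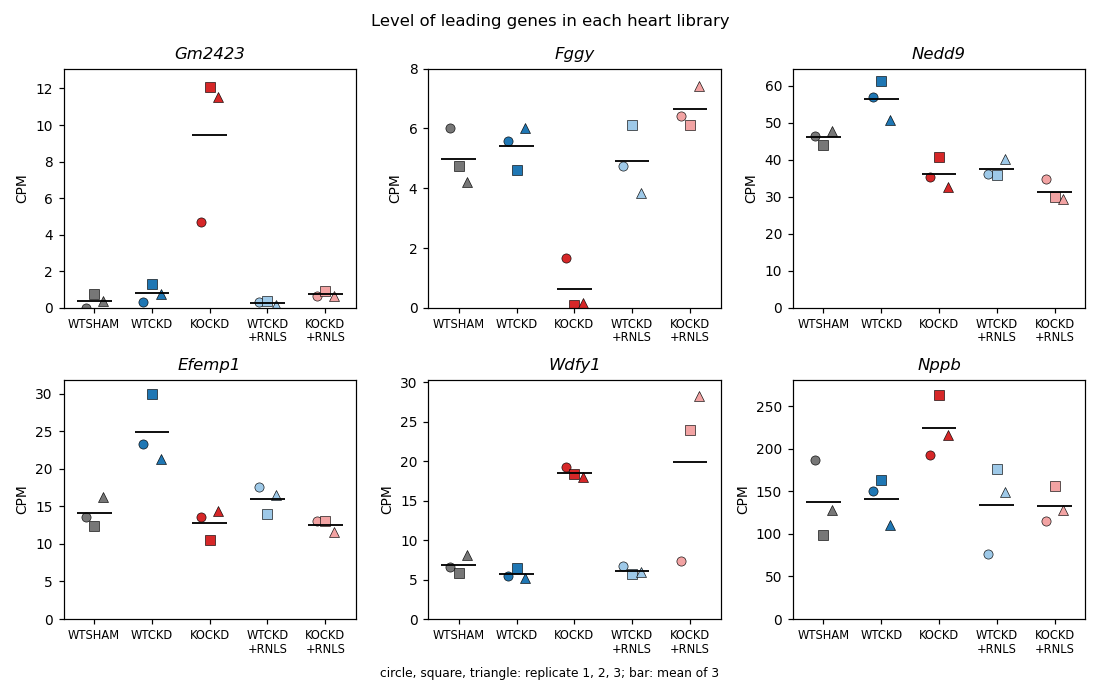
Level of 6 genes in each of the 15 heart libraries, in TMM-scaled CPM (y axis, from 0) by group (x axis); each point is a library, its shape the replicate number, and the bar is the mean of 3. Gm2423 is high and Fggy low only in the 3 KOCKD libraries, while Wdfy1 is high in the 3 KOCKD and in 2 of the 3 KOCKD + RNLS libraries; Nedd9 and Efemp1 lie lower and Nppb higher in KOCKD than in WTCKD.

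Among the other genes with the smallest unadjusted p, Rasl11b, a small GTPase of the Ras family, was higher at 28.1, 19.5 and 36.6 CPM in KOCKD against 16.1, 13.2 and 15.5 CPM in WTCKD (log2 fold change 0.91 (SE 0.19, unadjusted p = 2.07e-04, edgeR)). Gm52720, a predicted gene, was at 63.4, 53.7 and 56.4 against 20.5, 17.8 and 18.9 CPM. Neither pair of groups overlapped. For Rasl11b, WTSHAM held 297, 454 and 320 reads and WTCKD + RNLS 415, 351 and 375. KOCKD held 322, 209 and 454 reads and WTCKD 191, 144 and 182, so WTCKD was the lowest of the 5 groups. KOCKD + RNLS (274, 297 and 253 reads) lay below WTCKD + RNLS. For Gm52720, WTSHAM held 678, 367 and 261 reads and KOCKD 726, 577 and 700, so WTSHAM 1 lay in the KOCKD range. Dcun1d5 (log2 fold change 0.42 ± 0.09, SE), Cep128 (0.60 ± 0.13), Tmem167 (0.45 ± 0.11) and Pyroxd1 (0.46 ± 0.12) were called higher with smaller differences, as was the ribosomal pseudogene Rpl34-ps1 (1.252 ± 0.31), whose reads may belong to its parent gene. On the lower side stood Thrb, the beta receptor of thyroid hormone, at 15.7, 16.4 and 16.7 against 20.03, 23.3 and 23.4 CPM (log2 fold change -0.45 (SE 0.10, unadjusted p = 3.05e-04, edgeR)), and Selplg, the P-selectin ligand of leukocytes, at 4.72, 4.38 and 5.07 against 9.04, 7.72 and 7.39 CPM (log2 fold change -0.77 (SE 0.17, unadjusted p = 4.08e-04, edgeR)). The groups were separate for both. Auts2 (-0.64 ± 0.14), Ptpn12 (-0.40 ± 0.09), Baz1a (-0.66 ± 0.15), Stard13 (-0.42 ± 0.10) and Lpin1 (-0.40 ± 0.09), the last a phosphatidate phosphatase and coactivator of fatty acid oxidation genes, were also called lower. Once each library's trend on gene length was removed, Thrb, Ptpn12, Stard13 and Lpin1 came just short of the fold change threshold, at -0.316, -0.28, -0.27 and -0.307, with unadjusted p of 0.00139 to 0.00559 (edgeR). Ptpn12 came short also without WTCKD 3 and Lpin1 without KOCKD 3.

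The same genotypes were also compared among the 6 RNLS-treated libraries, which share no library with KOCKD and WTCKD, and where 53 genes (0.42%) had an adjusted p under 0.05, and 519 (4.11%) were called higher and 572 (4.53%) lower. Few genes were called in both contrasts. In the same direction there were 50, namely 15 higher and 35 lower in the knockout, which are 6.98% of the genes called between KOCKD and WTCKD and 4.58% of those called between the RNLS groups, and 44 were called in opposite directions. Across the 12618 genes, which are not independent replicates, the 2 sets of log2 fold changes had a Pearson r of 0.045 and a Spearman rho of -0.13. The difference between the contrasts had an adjusted p under 0.05 for 0 genes (0.0%) and an unadjusted p under 0.05 for 2275 (18.0%; edgeR, not run with another tool).

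The 6 knockout CKD libraries lay wholly to 1 side of the 6 wild-type CKD libraries, with an unadjusted p under 0.05 in both contrasts, for 18 genes (0.143%). Of the 17 of these with an average log2 CPM over 1, 10 were higher and 7 lower in the knockout. Wdfy1, an endosomal adaptor of Toll-like receptors 3 and 4, was the foremost. It stood at 19.3, 18.3 and 18 CPM in KOCKD and 5.49, 6.43 and 5.18 CPM in WTCKD (log2 fold change 1.70 (SE 0.33, unadjusted p = 1.02e-04, edgeR); adjusted p = 0.257), a 3.25-fold difference with a narrow spread in both groups. KOCKD + RNLS held 7.40, 23.9 and 28.3 CPM against 6.68, 5.65 and 5.97 CPM in WTCKD + RNLS, so replicate 1 of KOCKD + RNLS was close to the wild types, and the log2 fold change was the same (1.70). Fam81a stood at 21.5, 38.3 and 15.7 against 9.04, 12.9 and 12 CPM (log2 fold change 1.15 ± 0.30 with vector and 1.55 with RNLS). Camk2b, the beta subunit of calcium/calmodulin-dependent kinase II, was at 27.6, 29.4 and 24.4 against 18.2, 20.5 and 20.05 CPM (0.47 ± 0.12 and 0.63). Adap1, Lrrc51 and Myct1 followed with 0.91 ± 0.27, 0.78 ± 0.21 and 0.50 ± 0.14 in the vector groups. Genes of this set, higher or lower, were picked for lying on the same side in both pairs of groups, so their shared direction is not a separate result.

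Lower in both contrasts were Plac9a (21.6, 19.8 and 22.1 against 33.3, 40.4 and 32.6 CPM, log2 fold change -0.74 ± 0.30 with vector and -1.61 with RNLS), which has a near-identical copy, Plac9b, and Stbd1, a glycogen-binding protein (-0.70 ± 0.21 and -1.10). Resf1, a regulator of retroelement silencing, held 18.3, 13.5 and 19 against 24.8, 29 and 32.7 CPM (-0.76 ± 0.26 and -0.80). A pair of macrophage genes belonged to the same group. Cd68, a lysosomal protein of macrophages, stood at 10.4, 11.4 and 8.86 against 13.9, 14.6 and 12.7 CPM (-0.43 ± 0.19 and -0.92), and Ccr2, the chemokine receptor of recruited monocytes, at 2.62, 1.77 and 2.74 against 3.89, 3.77 and 3.06 CPM (-0.58 ± 0.25 and -0.58). The call of Plac9a was lost without KOCKD 2 or WTCKD 2, that of Ccr2 without KOCKD 2, WTCKD 1 or WTCKD 2, and that of Cd68 without KOCKD 1, KOCKD 3, WTCKD 1 or WTCKD 2. With the 6 libraries alone, edgeR and DESeq2 both lost the call of Ccr2.

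Of 25 hypertrophy and fetal genes, 1 was called higher and 0 lower. It was Nppb, which encodes B-type natriuretic peptide, the hormone of the stretched ventricle. Nppb held 193, 263 and 216 CPM in KOCKD and 150.2, 163 and 110.4 CPM in WTCKD, and the lowest KOCKD library lay above the highest WTCKD library. The log2 fold change was 0.67 ± 0.26 (SE; 95% interval 0.11 to 1.22; unadjusted p = 0.0215, adjusted p = 0.451, edgeR). WTSHAM hearts had 187, 98.5 and 128 CPM. They overlapped WTCKD, and their highest value lay just below the lowest KOCKD library. Between the RNLS groups the log2 fold change was -0.01 (unadjusted p of the difference between the contrasts = 0.0846, edgeR). The call was lost without KOCKD 2 or WTCKD 3 and with the length trend removed (0.48 to 0.53), whereas DESeq2 with the 6 libraries alone gave an adjusted p of 3.39e-04. The promoter of Nppb is shown because this was the only hypertrophy gene past the threshold and GATA factors of the heart are known to act on it (RefSeq, build GRCm38.p6, chr4:147985650-147985949, plus strand, 250 bases before to 50 after the start, 5′ to 3′). Capitals mark GATAA, searched on both strands. It occurs 2 times here, and 5.27% of 32851 promoters of this length hold it 2 or more times, as do 1.91% of the 10063 promoters listed first for the genes tested.
Nppb: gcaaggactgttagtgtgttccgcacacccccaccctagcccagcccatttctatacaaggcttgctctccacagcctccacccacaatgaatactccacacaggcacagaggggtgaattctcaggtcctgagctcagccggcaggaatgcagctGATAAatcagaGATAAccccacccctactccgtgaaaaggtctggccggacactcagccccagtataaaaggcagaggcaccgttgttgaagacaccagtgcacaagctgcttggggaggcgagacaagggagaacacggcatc

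Several other hypertrophy genes, among them Myh7, Nppa and Acta1, varied too much between libraries for the groups to be told apart. Of the 25 genes on the list, Nppb included, 16 had an interval within 2-fold. The KOCKD libraries lay wholly above the WTCKD libraries for 3 of the 25 and wholly below for 5. Myh7, the fetal myosin heavy chain, stood at 319, 134 and 896 CPM in KOCKD and 258, 381 and 222 CPM in WTCKD, and KOCKD alone spanned more than the difference of the means (log2 fold change 0.65 ± 0.67, unadjusted p = 0.347, edgeR). Nppa, the atrial natriuretic peptide, held 313, 103 and 936 against 363, 1174 and 80.5 CPM (-0.26 ± 0.77), which followed the atrial content of the libraries. Acta1, skeletal alpha-actin, was high in KOCKD 1 alone (1334, 402 and 444 against 464, 592 and 519 CPM, 0.47 ± 0.61), and Ankrd1, a stretch-responsive cardiac ankyrin protein, overlapped as well (0.40 ± 0.27). Myh6 stood at 32263, 31644 and 30135 CPM in KOCKD and 33721, 33318 and 40379.5 CPM in WTCKD, without overlap, but short of the fold change threshold (log2 fold change -0.19 (SE 0.08, unadjusted p = 0.0369, edgeR)). Of 33 sarcomere and Z-disc genes, 1 was called higher, the titin cap gene Tcap (0.50 ± 0.23), and 32 had an interval within 2-fold. Tcap was called in 1 of the 6 fits that left a library out and in neither DESeq2 fit.

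Macrophage genes lay lower in KOCKD. Of 31 tested, 29 had a negative log2 fold change, 12 were called lower (38.7%, against 3.71% of all genes) and 0 higher, and the median log2 fold change was -0.33, against -0.00372 over all genes tested. Lyve1 and Cd163 mark resident macrophages. Lyve1 held 14.9, 12.3 and 9.51 CPM in KOCKD and 21.9, 26.9 and 17 CPM in WTCKD (log2 fold change -0.85 (SE 0.24, unadjusted p = 0.00258, edgeR)). Cd163, the scavenger receptor of haemoglobin, held 12.1, 13.9 and 9.75 against 21.9, 19.5 and 18.4 CPM (-0.75 (SE 0.23, unadjusted p = 0.00447, edgeR)). KOCKD and WTCKD did not overlap for either, while WTSHAM lay above KOCKD and overlapped WTCKD, at 38, 31.2 and 22.7 CPM for Lyve1 and 18.7, 20.3 and 28 CPM for Cd163.

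Mrc1, the mannose receptor, was at 32.6, 29.6 and 25.1 against 45.3, 42 and 36.4 CPM (log2 fold change -0.50 (SE 0.19, unadjusted p = 0.0197, edgeR)), without overlap. Gpnmb, a glycoprotein of lipid-laden macrophages, had the most negative value of the list, with 3.58, 1.49 and 1.37 against 7.10, 8.09 and 2.72 CPM (-1.47 (SE 0.45, unadjusted p = 0.00483, edgeR)), where WTCKD 3 fell among the KOCKD libraries. Fcgr3 (-0.49 ± 0.17), Laptm5 (-0.46 ± 0.16), F13a1 (-0.52 ± 0.21), Adgre1, which encodes F4/80 (-0.52 ± 0.24), C1qc (-0.36 ± 0.15), Ccr2 and Cd68 were called lower too. Csf1r, the receptor of the macrophage growth factor, was not called (47.4, 44.6 and 34.5 against 56.4, 60.7 and 44.4 CPM, -0.35 ± 0.18), nor were Lyz2, Tyrobp, Pf4, Aif1 and Cx3cr1.

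The size of the list's difference depended on single libraries. The genes called lower numbered 4 without WTCKD 1, 6 without KOCKD 3, 7 without WTCKD 2 and 17 without WTCKD 3. In these fits the median stayed between -0.49 and -0.23, and 2.45% to 4.72% of all genes were called lower. Cd163, Lyve1 and Gpnmb were called in each of the 6. Mrc1 and Laptm5 lost their call without KOCKD 3 or WTCKD 1, Fcgr3 without WTCKD 1, C1qc and F13a1 without KOCKD 3, WTCKD 1 or WTCKD 2, and Adgre1 without any 1 of 4 libraries. The summed level of the list was 681, 681 and 569.5 CPM in KOCKD and 882, 880.4 and 648 CPM in WTCKD, with WTCKD 3 inside the KOCKD range. In whole heart RNA, fewer macrophages and less RNA per macrophage cannot be told apart. Between the RNLS groups 28 of the 31 genes were lower in the knockout and 8 were called lower (median -0.29). Of all genes, 4.53% were called lower in that contrast. The 8 and the 12 come from separate libraries, and the list was written with earlier results of these data known.

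**Figure D2:**
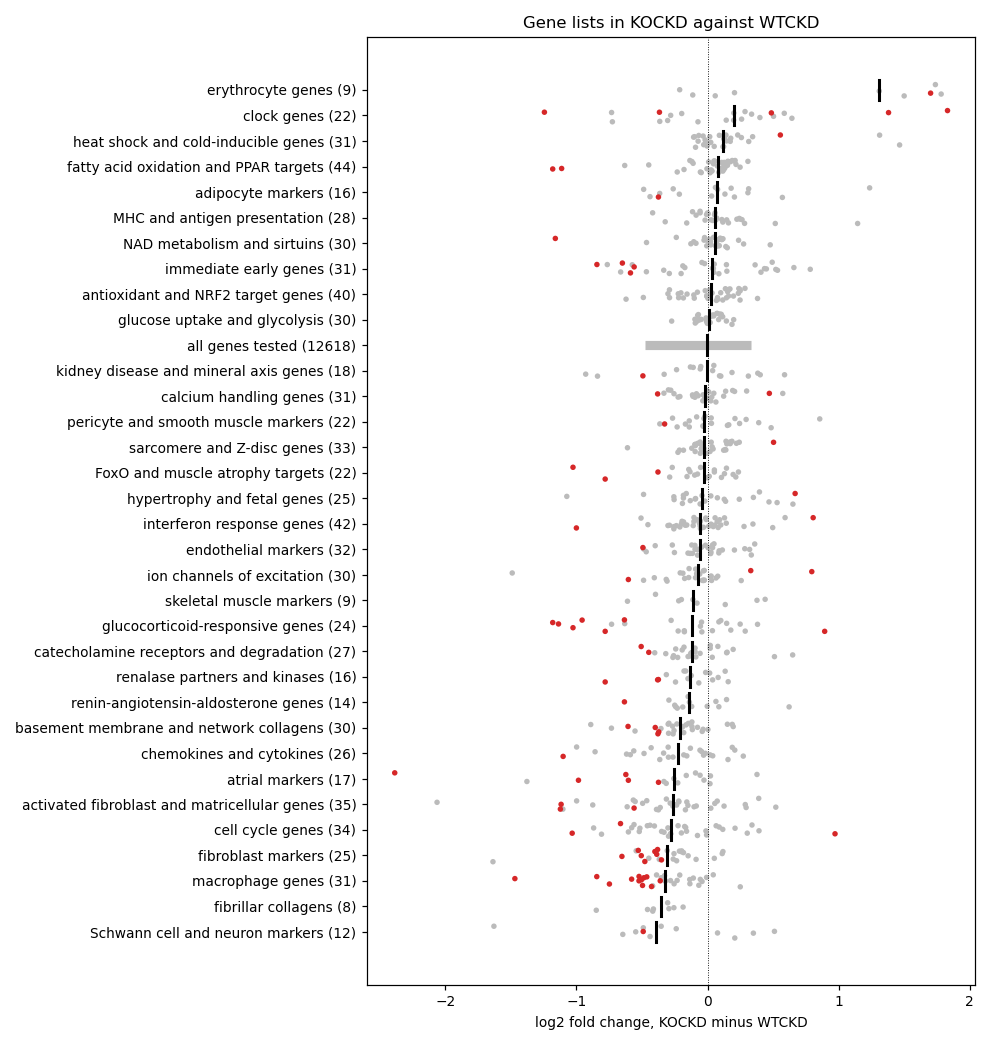
Log2 fold change, KOCKD minus WTCKD (x axis), of the members of each gene list with 8 or more genes tested (y axis, number tested in brackets); red points passed a log2 fold change beyond 0.32 with unadjusted p under 0.05, grey points did not, black bars are medians, and the grey bar spans the 5th to 95th percentile of all 12618 genes. Macrophage genes and fibroblast markers show 12 and 8 red points, all on the lower side.

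Fibroblast markers lay lower as well, though less evenly. Of 25 tested, 22 had a negative log2 fold change, 8 were called lower (32%, against 3.71% of all genes) and 0 higher, and the median was -0.31. Ddr2, a collagen receptor, held 22.6, 18.4 and 24.2 CPM in KOCKD and 31.2, 36.8 and 34.8 CPM in WTCKD without overlap (log2 fold change -0.65 (SE 0.19, unadjusted p = 0.00367, edgeR)). Decorin, the matrix proteoglycan encoded by Dcn, was at 666, 551 and 549.5 against 811, 917 and 572 CPM (-0.38 (SE 0.14, unadjusted p = 0.0179, edgeR)), and Pdgfra, the receptor that marks cardiac fibroblasts, at 50.7, 38.1 and 36.9 against 49.4, 66.5 and 50.2 CPM (-0.40 (SE 0.18, unadjusted p = 0.0401, edgeR)), both with overlapping groups. Dpt, Fbln1, C7, Clec3b and Lum were the others, between -0.53 for Fbln1 and -0.35 for Lum. The count was 2 without KOCKD 3 or WTCKD 2, 3 without KOCKD 2, 5 without WTCKD 1, 13 without KOCKD 1 and 15 without WTCKD 3, while genes called lower were 2.45% to 4.72% of all genes in these fits. The summed level was 3918, 3021 and 3125 CPM in KOCKD and 4146, 5122 and 3307 CPM in WTCKD. Between the RNLS groups the median was 0.03, with 0 called higher and 1 lower (4.11% and 4.53% of all genes were).

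Of 8 fibrillar collagens, the chains of scar tissue, 0 were called and all 8 had negative values (median -0.36, range -0.85 to -0.19). Col1a1 stood at 154, 92.2 and 89.1 CPM in KOCKD and 121, 166 and 124 CPM in WTCKD, and KOCKD 1 lay within the WTCKD range (log2 fold change -0.29 ± 0.26, 95% interval -0.84 to 0.25). Col3a1 was at 248, 168 and 169.9 against 239, 302 and 239 CPM (-0.41 ± 0.23). Without KOCKD 1, 4 of the 8 were called lower, namely Col1a1, Col1a2, Col3a1 and Col5a2. Of 30 basement membrane and network genes 4 were called lower (13.3%, against 3.71% of all genes). These were Nid2 (nidogen-2, -0.38 ± 0.12), Hspg2 (perlecan, -0.37 ± 0.13), Col6a3 (-0.40 ± 0.17) and Col6a6 (-0.61 ± 0.26). Their list's median was -0.21, and -0.12 with 2 called once the length trend was removed. The call of Nid2 was lost without WTCKD 2, that of Hspg2 without WTCKD 3, and those of Col6a3 and Col6a6 without any 1 of 2 or more libraries. Col4a1 (-0.15 ± 0.15) and Col4a2 (-0.12 ± 0.15) were not called.

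Among 35 genes of activated fibroblasts and matricellular proteins, Postn, Cilp and Thbs1 were called lower and 0 higher. The share called lower was 8.57%, against 3.71% of all genes, and the median was -0.26. Cilp, a matrix protein of the fibrotic heart, held 19.2, 7.91 and 11.4 against 26.5, 40.7 and 16.7 CPM (log2 fold change -1.12 (SE 0.38, unadjusted p = 0.00938, edgeR)), and Postn, periostin, 62, 38.6 and 45.4 against 69.1, 102 and 44.2 CPM (-0.56 (SE 0.26, unadjusted p = 0.0493, edgeR)). Groups overlapped for both, and 0 genes of the list were called without WTCKD 2. The call of Postn was lost without any 1 of 4 libraries and in 5 of the other fits, both DESeq2 fits among them, and its value was -0.22 without WTCKD 2. Thbs1 was high in WTCKD 2 (16.1, 7.26 and 10.1 against 14.8, 47 and 11.6 CPM). Fn1, fibronectin, did not pass (57.5, 57.3 and 56.3 against 64.1, 85.1 and 72.6 CPM, -0.37 ± 0.20), and Acta2, the smooth muscle actin of myofibroblasts and vessels, spanned 303, 179 and 127 against 129, 129.9 and 238 CPM (0.29 ± 0.37). Several lists of other cell types had 1 gene called lower, where 3.71% of all genes were. Of 32 endothelial markers it was the endothelin receptor Ednrb (3.1% of the list, -0.49 ± 0.14), and of 22 pericyte and smooth muscle markers Notch3 (4.5%, -0.33 ± 0.12). Of 16 adipocyte markers it was Acaca (6.25%, -0.37 ± 0.18), and of 12 Schwann cell and neuron markers Egfr (8.33%, -0.49 ± 0.22). None was called higher in these lists, and the calls of Notch3, Acaca and Egfr were each lost without any 1 of 2 or more libraries. Of 9 erythrocyte genes 1 was called higher (11.1%, against 1.97% of all genes), Hba-a1. This alpha globin, which has a near-identical copy, held 10.9, 27 and 88.7 against 7.94, 21.4 and 10.02 CPM. Its call was lost without KOCKD 3, WTCKD 1 or WTCKD 3, in both DESeq2 fits and with the length trend removed. It was lost too with the replicate number or the level of atrial genes as a covariate. The 4 lymphocyte markers, 9 skeletal muscle markers and 2 lung markers tested gave 0 calls.

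**Figure D3:**
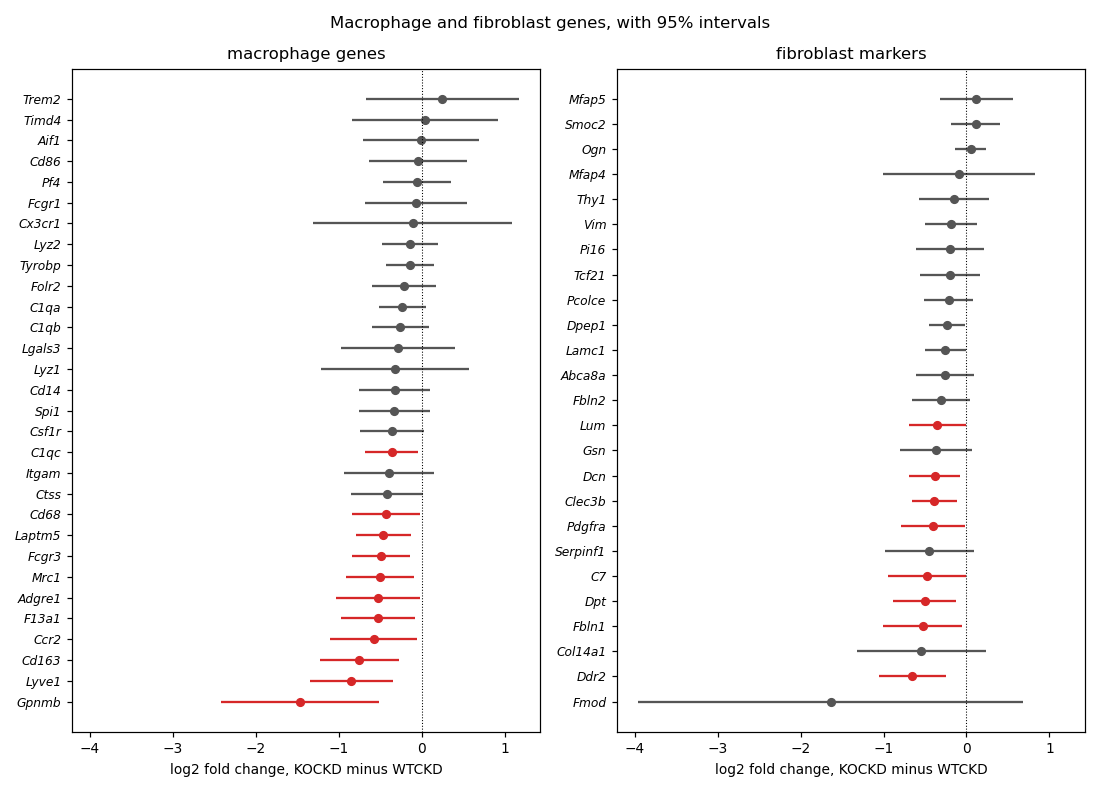
Log2 fold change, KOCKD minus WTCKD (x axis), with its 95% interval for 30 of the 31 tested macrophage genes (left) and the 25 fibroblast markers (right); red marks genes past a log2 fold change beyond 0.32 with unadjusted p under 0.05. Macrophage estimates run from -1.47 for Gpnmb to 0.25 for Trem2, with all but 2 below 0.

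Atrial markers were called lower for 5 of 17 genes (29.4%, against 3.71% of all genes) and higher for 0. Dkk3 held 17, 2.89 and 28.3 against 75.4, 177 and 2.89 CPM, so the libraries poor in Myl7 were poor in Dkk3 in both groups. KOCKD 3, the library with the most Myl7, nevertheless held less Dkk3 than WTCKD 1 and WTCKD 2. Kcnj3, a potassium channel subunit, differed otherwise: it stood at 75.5, 91.1 and 96.3 CPM in KOCKD and 130.1, 163 and 107 CPM in WTCKD without overlap (log2 fold change -0.60 (SE 0.19, unadjusted p = 0.00530, edgeR)). Tbx5, a T-box factor of the atria and left ventricle, was at 33.7, 30.7 and 38.3 against 53.7, 65 and 39.8 CPM (-0.62 (SE 0.19, unadjusted p = 0.00431, edgeR)), and the nuclear receptors Nr2f1 and Nr2f2 were at -0.98 ± 0.29 and -0.37 ± 0.17. With the mean log2 CPM of Myl7, Sln and Myl4 as a covariate, 7 atrial markers, 11 macrophage genes and 6 fibroblast markers were called lower. In that fit 3.84% of all genes were called lower. Without KOCKD 3, 8 atrial markers were called lower, and without KOCKD 1 or WTCKD 2, 3 were. The calls of Dkk3 and Nr2f2 were each lost without KOCKD 1, KOCKD 2 or WTCKD 2, and that of Dkk3 also without WTCKD 1. Both DESeq2 fits lost the call of Dkk3, and DESeq2 with the 6 libraries alone lost that of Nr2f2.

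Several genes that respond to glucocorticoids or to stress were lower in KOCKD. Of 24 on the list, 6 were called lower (25%, against 3.71% of all genes) and 1 higher (1.97% of all genes were), and the median was -0.12. Errfi1, a feedback inhibitor of EGF receptors, held 20.5, 21.3 and 23.4 CPM in KOCKD and 37.4, 66 and 40.4 CPM in WTCKD (log2 fold change -1.14 (SE 0.28, unadjusted p = 9.49e-04, edgeR)). Pdk4, the kinase that shuts pyruvate dehydrogenase and turns fuel use to fatty acids, held 515, 173 and 465 against 753, 517 and 1345 CPM (-1.18 (SE 0.37, unadjusted p = 0.00591, edgeR)). Neither pair overlapped, although Pdk4 spread over 2-fold within each group, and its call was lost without WTCKD 3.

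Cebpd, a transcription factor of the acute phase, was at 16.8, 13.7 and 16 against 35.7, 37.8 and 16.9 CPM (log2 fold change -0.96 (SE 0.32, unadjusted p = 0.00828, edgeR)), where WTCKD 3 sat just above the KOCKD libraries. Ddit4, an inhibitor of mTORC1, was at 30.5, 98.2 and 27.2 against 94.1, 135 and 87.2 CPM (-1.03 ± 0.38), and Cdkn1a, the cell cycle inhibitor p21, at 32.2, 60.6 and 22.6 against 62.2, 78.7 and 56.8 CPM (-0.78 ± 0.26). KOCKD 2 reached the WTCKD range in both. Sgk1 (-0.63 ± 0.27) completed the 6, and Zbtb16 was the 1 called higher (54.8, 112 and 111 against 70.1, 35.8 and 43.2 CPM, 0.89 ± 0.35). Single libraries decided several of these calls. Those of Ddit4 and Sgk1 were lost without KOCKD 1, KOCKD 3 or WTCKD 2, that of Cdkn1a without KOCKD 3 and that of Zbtb16 without KOCKD 2, KOCKD 3, WTCKD 2 or WTCKD 3. DESeq2 with the 6 libraries alone also lost the calls of Ddit4, Cdkn1a and Sgk1, and DESeq2 with all 15 lost that of Sgk1. The value of Ddit4 ranged from -1.88 (without KOCKD 2, adjusted p = 0.0284, edgeR) to -0.71 over the alternatives, and adjusted p from 0.0284 to 0.791. The classical targets Fkbp5 and Tsc22d3 were not called, with Fkbp5 at 0.29 ± 0.38 and Tsc22d3 at -0.28 ± 0.22.

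Of 31 immediate early genes 4 were called lower (12.9%, against 3.71% of all genes) and 0 higher. Klf6, a zinc finger factor, held 50.1, 56.8 and 58.5 against 85.7, 101 and 73.1 CPM (log2 fold change -0.65 (SE 0.17, unadjusted p = 0.00180, edgeR)), Klf4 39.1, 57.9 and 45.8 against 59.4, 121 and 76.5 CPM (-0.84 (SE 0.26, unadjusted p = 0.00498, edgeR)), and Fosl2 and Maff were at -0.56 ± 0.24 and -0.59 ± 0.25. The groups were separate for the 4. Fos and Egr1 ranged widely in both groups, with Fos at 8.91, 0.931 and 24.4 against 2.03, 14.7 and 3.65 CPM. Without WTCKD 2 the list had 1 gene called lower and 2 higher, and Klf4, Fosl2 and Maff were no longer called. Of 22 FoxO and atrophy genes 3 were called lower (13.6%, against 3.71% of all genes), Ddit4, Cdkn1a and Foxo1 itself. Foxo1 held 37, 31 and 32.1 against 44, 41.6 and 44.3 CPM (log2 fold change -0.38 (SE 0.09, unadjusted p = 6.68e-04, edgeR)). With the length trend removed Foxo1 was at -0.313 (unadjusted p = 0.00202, edgeR) and so short of the fold change threshold. Of 31 heat shock and cold-inducible genes 1 was called higher, Cirbp, a cold-inducible RNA-binding protein, at 53.6, 42.7 and 68.3 against 33.4, 41.3 and 37.6 CPM (0.55 (SE 0.16, unadjusted p = 0.00311, edgeR)).

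Clock genes showed 3 called higher and 2 lower of 22 (22.7% called, against 5.67% of all genes, median 0.20). The heart clock is a loop in which ARNTL, paired with CLOCK or NPAS2, switches on its own repressors and output genes. Genes of the loop were called in both directions. Npas2 held 5.33, 4.10 and 3.06 CPM in KOCKD and 9.13, 10.8 and 9.60 CPM in WTCKD (log2 fold change -1.24 (SE 0.36, unadjusted p = 0.00360, edgeR)), and Rora, an activator of Arntl, 26.6, 25.5 and 29.2 against 30.6, 35.2 and 39.2 CPM (-0.37 (SE 0.11, unadjusted p = 0.00535, edgeR)). Arntl was at 23.3, 24.5 and 9.99 against 30.5, 30.8 and 34 CPM, without overlap but not called (-0.73 (SE 0.36, unadjusted p = 0.0631, edgeR)).

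Ciart, a repressor of the ARNTL complex, held 3.06, 2.61 and 9.99 CPM in KOCKD and 1.27, 1.65 and 1.53 CPM in WTCKD (log2 fold change 1.83 (SE 0.74, unadjusted p = 0.0255, edgeR)). Dbp, an output factor, held 52.2, 23.6 and 142 against 20.2, 34.1 and 29.8 CPM (1.38 (SE 0.56, unadjusted p = 0.0256, edgeR)), and Bhlhe41, a further repressor, 29.5, 23.9 and 46.4 against 22.7, 27.3 and 21.5 CPM (0.49 (SE 0.22, unadjusted p = 0.0395, edgeR)). In all 3 genes KOCKD 3 stood above the other 5 libraries, and it was the lowest library for Npas2 and Arntl. Without KOCKD 3 the list had 0 genes called higher and 3 lower, with a median of -0.06. Without WTCKD 1 it had 0 higher and 2 lower, without WTCKD 3 1 and 1, and without KOCKD 2 5 and 6. The hour at which each heart was taken is not given in the sources used here, and its part in these values was not tested. Nr1d1 (0.64 ± 0.36) and Per2 (0.50 ± 0.64) were not called.

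**Figure D4:**
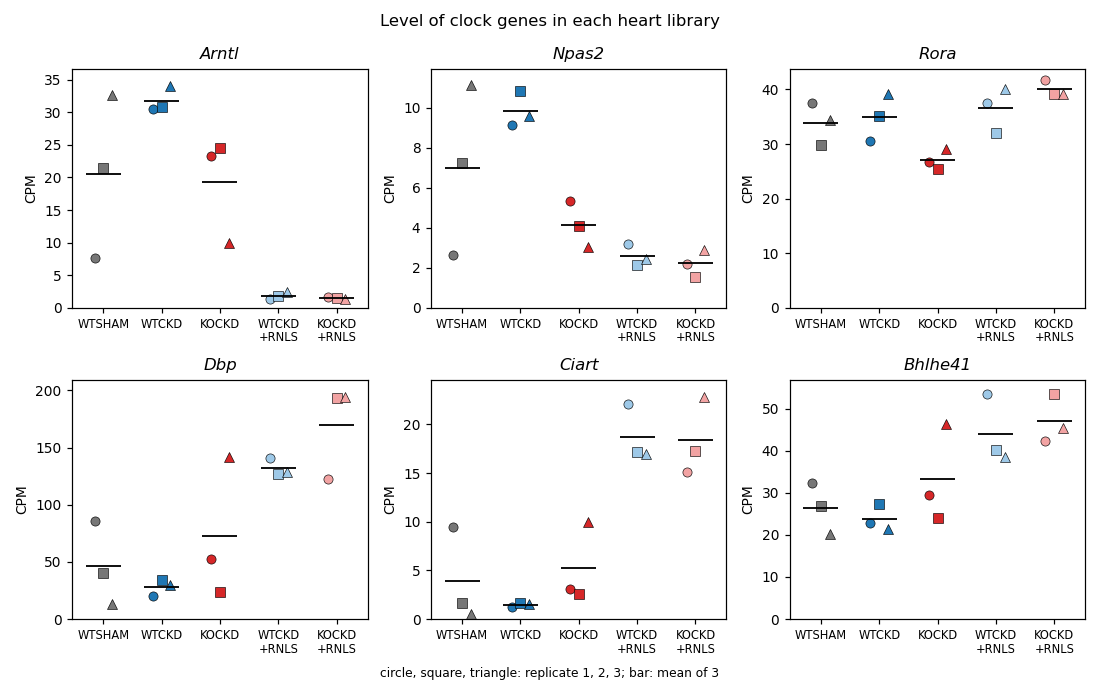
Level of 6 clock genes in each of the 15 heart libraries, in TMM-scaled CPM (y axis, from 0) by group (x axis); each point is a library, its shape the replicate number, and the bar is the mean of 3. KOCKD replicate 3 (triangle) is the highest KOCKD library for Dbp, Ciart and Bhlhe41 and the lowest for Arntl and Npas2.

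The CLOCK and NPAS2 complexes bind the E-box CACGTG, which reads the same on both strands. Of the 18 clock genes with a RefSeq promoter, 5 hold it (27.8%), as do 7.15% of 32851 promoters of this length and 10.2% of the 10063 promoters listed first for the genes tested. Among the genes called higher, Ciart holds 3 copies (29 of all promoters, 0.0883%, and 16 of those listed first for the genes tested, 0.159%, hold 3 or more), Bhlhe41 holds 1, and Dbp holds 0 in this window, as does Npas2. The promoters with a copy among the genes called are shown to set the E-boxes beside their values (build GRCm38.p6, 250 bases before to 50 after the start, 5′ to 3′, E-box in capitals): Ciart at chr3:95882179-95882478, minus strand, and Bhlhe41 at chr6:145865371-145865670, minus strand.
Ciart: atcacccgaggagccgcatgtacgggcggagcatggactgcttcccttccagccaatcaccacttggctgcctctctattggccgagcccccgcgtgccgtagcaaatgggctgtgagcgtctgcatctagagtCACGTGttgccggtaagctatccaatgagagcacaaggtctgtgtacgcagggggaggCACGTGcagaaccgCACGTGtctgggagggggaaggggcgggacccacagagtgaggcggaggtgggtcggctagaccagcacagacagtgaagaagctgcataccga
Bhlhe41: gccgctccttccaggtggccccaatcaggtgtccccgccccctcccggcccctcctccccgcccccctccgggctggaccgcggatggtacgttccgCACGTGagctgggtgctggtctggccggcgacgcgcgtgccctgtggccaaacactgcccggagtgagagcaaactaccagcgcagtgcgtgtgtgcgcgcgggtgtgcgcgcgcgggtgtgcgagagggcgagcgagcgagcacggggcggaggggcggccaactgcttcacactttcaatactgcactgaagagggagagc

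Genes of renalase's own field were called in small numbers. Of 27 genes for catecholamine receptors, transport and degradation, 2 were called lower (7.41%, against 3.71% of all genes) and 0 higher. Maoa, monoamine oxidase A, which degrades noradrenaline, held 6.38, 5.96 and 6.36 CPM in KOCKD and 9.55, 9.83 and 7.22 CPM in WTCKD (log2 fold change -0.51 (SE 0.20, unadjusted p = 0.0201, edgeR)). WTSHAM held 4.59, 7.39 and 6.71 CPM, at the level of KOCKD, and between the RNLS groups the value was 0.21 (unadjusted p of the difference = 0.0209, edgeR). The call was lost without WTCKD 1 or WTCKD 2. Pde4b, a cyclic AMP phosphodiesterase, was at 32.9, 35.2 and 30.4 against 37.6, 52.3 and 44.5 CPM (-0.45 (SE 0.16, unadjusted p = 0.0118, edgeR)). Without WTCKD 2 the list had 0 genes called lower, and without KOCKD 3 it had 5. Adrb1, the main cardiac beta receptor, was at 23.8, 18 and 22.5 against 19.9, 21.8 and 21.7 CPM (0.02 ± 0.12, 95% interval -0.23 to 0.27).

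Atp2b4, the calcium pump PMCA4 described as a receptor of secreted renalase, stood at 26.1, 24.8 and 22.4 CPM in KOCKD and 29.3, 34.9 and 31.2 CPM in WTCKD. The groups did not overlap, WTSHAM was higher than both at 38.1, 44.9 and 42 CPM, and the log2 fold change was -0.38 (SE 0.12, unadjusted p = 0.00546, edgeR), against 0.15 between the RNLS groups (unadjusted p of the difference = 0.00553, edgeR). Its call was lost without WTCKD 2 and with the length trend removed. Of the 16 renalase partners and kinases 3 were called lower (18.8%, against 3.71% of all genes) and 0 higher. Beside Atp2b4 these were Ccnd1, cyclin D1 (88.2, 77.9 and 79.4 against 90.8, 111 and 116 CPM, -0.38 (SE 0.11, unadjusted p = 0.00405, edgeR)), whose call was lost without WTCKD 3, and Cdkn1a. Of 30 genes of NAD metabolism and sirtuins 1 was called lower, Bst1, an ectoenzyme that consumes NAD, at low levels (0.699, 0.652 and 0.967 against 1.52, 2.48 and 1.27 CPM, -1.16 ± 0.38), a call lost without WTCKD 2. Nampt (0.11 ± 0.10), Nnt (0.08 ± 0.10) and Sirt3 (0.07 ± 0.09) were not called.

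Fuel genes were nearly level. Of 44 genes of fatty acid oxidation and PPAR targets, 2 were called lower, Pdk4 among them, and 0 higher, while the median was 0.08 and Cpt1b, the gate of mitochondrial fatty acid entry, was at 0.08 ± 0.11. Of 30 genes of glucose uptake and glycolysis 0 were called, and all 30 had an interval within 2-fold. Calcium handling had 1 higher, Camk2b, and 1 lower, Atp2b4, of 31. The ryanodine receptor Ryr2 stood at 1688, 1449.8 and 1605 against 1814, 1842 and 2008 CPM, without overlap and short of the fold change threshold (-0.26 (SE 0.09, unadjusted p = 0.0104, edgeR)). Of 30 ion channel genes 2 were called higher and 1 lower, Kcnj3 (10% called, against 5.67% of all genes). Among those called higher was the sodium channel subunit Scn3b (0.79 ± 0.30), whose call was lost without WTCKD 3 and in both DESeq2 fits.

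In immune lists other than that of macrophages, the share called was near or below that of all genes (5.67%). It was 4.76% for interferon response genes and 3.85% for chemokines and cytokines. Of 28 MHC and antigen presentation genes 0 were called, with H2-Aa at 0.12 ± 0.30 and Cd74 at 0.00 ± 0.26, both differences being under their SE. Of 42 interferon response genes Ifi27 was called higher (26.8, 47.2 and 49 against 23.9, 22.2 and 24.2 CPM, log2 fold change 0.81 (SE 0.34, unadjusted p = 0.0290, edgeR)) and Dhx58 lower (1.14, 1.86 and 1.93 against 3.72, 3.12 and 3.06 CPM, -1.0 (SE 0.33, unadjusted p = 0.00739, edgeR)), the first lost without any 1 of 5 libraries. Of 26 chemokines and cytokines Ccl12 was called lower (-1.10 ± 0.43). Of 34 cell cycle genes (8.82% called, against 5.67% of all genes) Ccne1 was called higher (0.97 ± 0.37) and Tyms (-1.03 ± 0.31) and Cdc20 (-0.66 ± 0.31) lower. Of the 34, 26 had negative values, with Mki67 at 6.81, 6.24 and 5.80 against 7.18, 10.2 and 10.8 CPM. The call of Cdc20 was lost in 9 alternatives, both DESeq2 fits among them, and that of Ccne1 in 4. That of Ccl12 was lost without KOCKD 2, KOCKD 3 or WTCKD 1. The 40 antioxidant and NRF2 target genes gave 0 calls, with Hmox1 at -0.10 ± 0.22 and Nqo1 at 0.01 ± 0.12. Of 14 renin-angiotensin-aldosterone genes Sgk1 was called lower, and Ace, at 108, 91.7 and 82.8 against 114, 128 and 104 CPM (-0.29 ± 0.14), was not. Of 18 genes of kidney disease and mineral metabolism 1 was called lower, again Ednrb.

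The genes that flank Rnls were looked at because a targeted locus can carry linked differences. Among the 5 tested genes on each side in the RefSeq order, 0 were called, and the smallest unadjusted p was 0.0544, for Minpp1 (log2 fold change 0.31 ± 0.15, edgeR). Lipo3 (-0.08 ± 0.13) had an interval of -0.36 to 0.20.

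Short genes lay higher and long genes lower in KOCKD. Genes were split by length into 5 groups of equal size. In the shortest group, 206 to 1962 bases, the median log2 fold change was 0.13, with 123 genes called higher and 24 lower. In the longest group, 6616 to 117466 bases, it was -0.12, with 20 higher and 198 lower. The mean of short minus long genes per library, against the mean of all libraries, was 0.24, 0.37 and 0.28 in KOCKD and 0.13, 0.01 and -0.0010 in WTCKD, so the 3 KOCKD libraries lay above the 3 WTCKD libraries on this measure, and above KOCKD + RNLS (-0.22, -0.26 and -0.19). WTCKD + RNLS stood at -0.13, 0.32 and -0.21, with replicate 2 in the range of KOCKD and the others close to KOCKD + RNLS. Between the RNLS groups the order was reversed, with medians of -0.13 for the shortest and 0.09 for the longest group. With the trend of each library on gene length removed, 176 genes were called higher and 356 lower (2.82% of all genes lower). Macrophage genes then had 18 called lower (58.1%) and fibroblast markers 7 (28%). RNA quality values are not given in the sources used here, and their part in this trend was not tested.

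**Figure D5:**
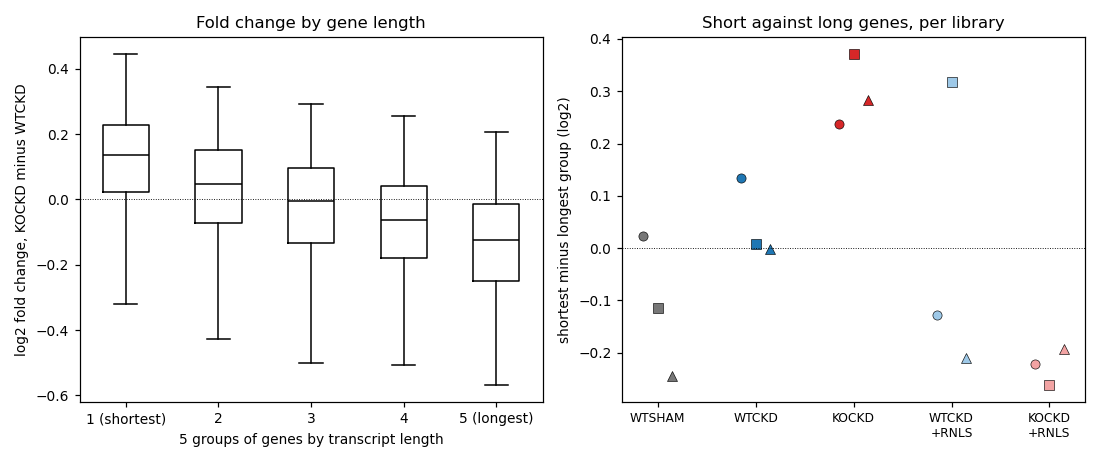
Left: log2 fold change, KOCKD minus WTCKD (y axis), of genes in 5 groups by transcript length (x axis); boxes span the quartiles with the median as a line, and whiskers the 5th to 95th percentile. Right: short minus long genes in each library (y axis, log2, shortest minus longest group relative to all libraries) by group, point shapes being replicates 1 to 3. Medians fall from 0.13 in the shortest to -0.12 in the longest group, and the 3 KOCKD libraries lie at 0.24 to 0.37.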

How the data were processed

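RNA-seq of 15 hearts was measured, 3 in each of 5 groups taken from the sample titles, and all columns were mapped. According to the study's methods and the submitters' processing notes, the authors trimmed reads with Trimmomatic, aligned them with HISAT2 and counted them per gene with HTSeq. They deposited these raw counts, and FPKM computed with Cufflinks, which here served only to recover each gene's length from the ratio of count to FPKM. The kit was stranded, whereas the strand option of the counting is not given in the sources used here. The methods name mm9 and the notes GRCm39, so no gene coordinates are given. They also name 2 sequencers and read lengths without saying which library had which. Promoters came from RefSeq tables on GRCm38.p6.

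Counts were fitted with edgeR 4.0.16 in R 4.3.3 (TMM factors 0.927 to 1.05, quasi-likelihood, group as the only term, 15 libraries, two-sided, Benjamini-Hochberg over 12618 genes). Depth was 10480788 to 13424078 counts per library, and the median SE of a log2 fold change was 0.14. No 2 of the 6 libraries were duplicates. On simulated counts with 200 changed genes of 12618 in KOCKD against WTCKD, edgeR recovered 157 with 11 false calls, 21 of 50 at a log2 change of 0.5 and 48 of 50 at 2. Genes were drawn independently there, without atrial differences or a length trend, and the changed genes were taken above a minimum level. These rates therefore need not hold for the real libraries. The comparison, its gene lists and the naming rule were chosen with earlier results of these data known, so no list was tested as a set.

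The rule named list genes marked for naming, the 10 higher and 10 lower genes with the smallest p among those called, non-overlapping and over a log2 CPM of 1, the 5 and 5 with the largest mean of both genotype contrasts, 5 tested neighbours of Rnls on each side, and the member of each list with the smallest p. A further 39 list members past the threshold were named after their values were seen. Alternatives were RLE factors, no or the default filter, the 6 libraries alone, DESeq2 1.42.0, a replicate block, length offsets and each library left out; an atrial covariate was chosen after seeing the data. The older DESeq package of the study was not run. Rnls and Xist were not analysed here, and some list members are counted but not reported by name.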

Additional observations from a re-analysis of the deposited data

How the results depend on the processing

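The count of genes at an adjusted p under 0.05, 0 as reported, was 0 with the default filter and with length offsets, 4 with RLE factors (Efemp1, Fggy, Gm2423 and Nedd9), 5 with no filter on low counts (these and Wdfy1), 2 with only the 6 libraries (Gm52720 and Wdfy1), 8 with DESeq2 on 15 libraries, 44 with DESeq2 on 6, 3 with the atrial covariate, and 0 to 3 with 1 library left out. At the threshold of the study, genes called higher ranged from 197 to 343 and genes called lower from 309 (without WTCKD 2) to 596 with 1 library left out. No named gene reversed its direction while called. Of the named genes, 8 lost their call with DESeq2 on 15 libraries, 17 with DESeq2 on 6 and 23 with length offsets. The replicate numbers share only a number: the deviations of same-numbered KOCKD and WTCKD libraries correlated at 0.032, -0.371 and -0.306, and a replicate block gave 1 gene at the adjusted threshold (Gm2423). List medians moved beyond their spread between replicates in 7 cases over 9 alternatives, all 7 with length offsets, and in 15 with a library left out. With a library left out, 145 of 1092 values of named genes lost their call and 25 gained one. The 1092 include genes that were not called in the main fit and could not lose a call, so the share of calls lost was larger. The median SE of 0.14 limits what could be detected, and small differences were often not detectable with 3 libraries in each group.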
